A study of Rattus norvegicus with 12 samples.

Results

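The peptide hormone genes of the gut's enteroendocrine cells, together with the receptor gene for glucagon-like peptide 2 (GLP-2), were followed in polyadenylated RNA from rat intestine. The set was fixed as a list of 10 genes, and its members were the rows of the deposited count table carrying those symbols: Gcg, Pyy, Nts, Cck, Gip, Sct, Sst, Tac1 and Glp2r, 9 of the 18749 genes counted. Insl5 was not analysed here. Of the 9, all but Gip passed the filter on low counts, so 8 members stood among the 15704 genes tested. The samples formed 3 groups of 4 libraries each, all from WT rats, all labelled intestine and all in batch 1. postSTC held libraries 1, 2, 5 and 7 and was labelled postoperative, preSTC held libraries 1, 5, 7 and 9 and was labelled preoperative, and preCTC held libraries 1, 5, 7 and 9 and was taken before a sham operation. The labels explain neither STC nor CTC and give no operation, gut segment, age or sex. Nothing in them ties replicates to different animals, and the spread behind each p-value may therefore be technical. Samples taken after a sham operation were not analysed here, and effects of surgery and of elapsed time cannot be told apart.

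Enteroendocrine cells are scattered, hormone-secreting cells of the gut epithelium. L cells of the distal gut make proglucagon (Gcg), which the convertase Pcsk1 cuts into GLP-1, an incretin, and GLP-2, a growth factor for the mucosa, and they also make peptide YY (Pyy), which slows gut transit. Further products are neurotensin (Nts), secretin (Sct), cholecystokinin (Cck), the incretin Gip, somatostatin (Sst) and the tachykinins encoded by Tac1, among them substance P, which enteric neurons make as well. The GLP-2 receptor Glp2r is known from enteric neurons and from stromal cells under the epithelium. In the small intestine Nts, Sct and Gip are prominent products, whereas Gcg and Pyy extend into the colon.

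RefSeq promoter sequences of assembly GRCr8, each running from 250 bases before to 50 bases after the annotated start, matched 7 of the 9 members by symbol and gene identifier. Shown are 2 hormone genes that differed sharply between preSTC and preCTC and the L-cell pair Gcg and Pyy, which did not. Capitals mark CANNTG, the E-box bound by basic helix-loop-helix factors such as Neurod1, and TTTAT or its reverse complement ATAAA, a core bound by caudal-type homeobox factors. Both strands were searched, and the marked matches do not overlap.
Nts promoter, chr7:39460839-39461138, minus strand: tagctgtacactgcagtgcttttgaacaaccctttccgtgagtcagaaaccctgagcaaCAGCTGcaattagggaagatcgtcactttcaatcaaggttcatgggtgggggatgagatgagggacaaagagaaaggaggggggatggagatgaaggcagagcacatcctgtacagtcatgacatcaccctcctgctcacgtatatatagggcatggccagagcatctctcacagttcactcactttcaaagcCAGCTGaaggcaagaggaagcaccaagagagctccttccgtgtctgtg
Tac1 promoter, chr4:36645333-36645632, plus strand: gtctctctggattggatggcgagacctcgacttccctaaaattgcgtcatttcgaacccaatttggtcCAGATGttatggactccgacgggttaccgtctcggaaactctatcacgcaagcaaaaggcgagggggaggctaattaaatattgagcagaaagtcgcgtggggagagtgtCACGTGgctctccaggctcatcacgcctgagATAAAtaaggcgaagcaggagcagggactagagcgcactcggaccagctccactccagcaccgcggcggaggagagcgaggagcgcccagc
Gcg promoter, chr3:67531484-67531783, minus strand: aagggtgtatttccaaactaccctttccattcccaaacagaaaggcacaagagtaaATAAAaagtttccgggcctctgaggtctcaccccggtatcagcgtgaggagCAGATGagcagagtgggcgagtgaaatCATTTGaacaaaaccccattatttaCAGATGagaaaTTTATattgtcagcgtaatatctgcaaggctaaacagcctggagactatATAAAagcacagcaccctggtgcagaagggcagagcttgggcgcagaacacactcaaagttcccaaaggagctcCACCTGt
Pyy promoter, chr10:87562421-87562720, minus strand: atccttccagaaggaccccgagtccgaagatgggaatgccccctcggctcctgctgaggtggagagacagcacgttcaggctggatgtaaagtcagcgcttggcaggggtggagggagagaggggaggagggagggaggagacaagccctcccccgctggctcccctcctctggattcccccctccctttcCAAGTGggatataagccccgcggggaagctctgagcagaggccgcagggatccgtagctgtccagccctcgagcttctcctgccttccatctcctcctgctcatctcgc

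The Gcg window held 4 CANNTG and 3 TTTAT matches, the Tac1 window 2 and 1, the Nts window 2 and 0, and the Pyy window 1 and 0. Among all 27457 promoters of that length in the table, 71.6% held a CANNTG match and 41.9% a TTTAT match, so most of these matches are common letters. A further motif, TGACGTCA, the cyclic AMP response element, matched in the Sst promoter alone among the 7 and in 1.91% of all promoters. The Glp2r promoter held none of the 3 motifs. A match describes letters in this window and is not a measured site.

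Libraries held 30095656 to 39374682 counts. In postSTC7, 16 genes that were rare in every other library, among them Semg1 and Pbsn, took 47.5% of the counts, against 0.00158 to 0.0283% in the other 11 libraries. Levels below are CPM, each count relative to its library's total after TMM scaling (trimmed mean of M values). This scaling set the factor of postSTC7 to 0.568. Within postSTC, that library was still the lowest for every hormone gene among the members and for the summed epithelium markers (8983 CPM). The postSTC means and spreads below include it, and what part its makeup has in them was not tested. Among the members, the call of Tac1 in postSTC against preSTC is also given without postSTC7. As a check on tissue, the summed CPM of 7 ileum-enriched genes such as Slc10a2, the ileal bile acid transporter, was 3153 to 7472 in postSTC, 9506 to 10839 in preSTC and 293 to 365 in preCTC. That of 10 colon-enriched genes such as Hoxb13 was 397 to 930 in postSTC, 185 to 244 in preSTC and 2095 to 4512 in preCTC. The groups did not overlap in either sum, and the segment of gut and the group cannot be told apart. preCTC5 stood apart from its group in the colon list, where Car1, a colonic carbonic anhydrase, made up 3108 of its 4512 CPM, against 226 to 494 CPM of Car1 in the other preCTC libraries. Hoxb13, a homeobox gene of the distal gut, was at 1.44 CPM in preCTC5 and at 315 to 445 CPM in the others, and the proton pump gene Atp12a at 2.03 CPM and at 687 to 1129 CPM. By the mean log2 CPM of the 10 genes preCTC5 (4.49) lay inside the range of postSTC (4.32 to 5.67), so the groups are separate by the sum and not by this mean. Car1 and Atp12a were named after their values were seen. Results that turn on preCTC5 are also given without it.

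**Figure D1:**
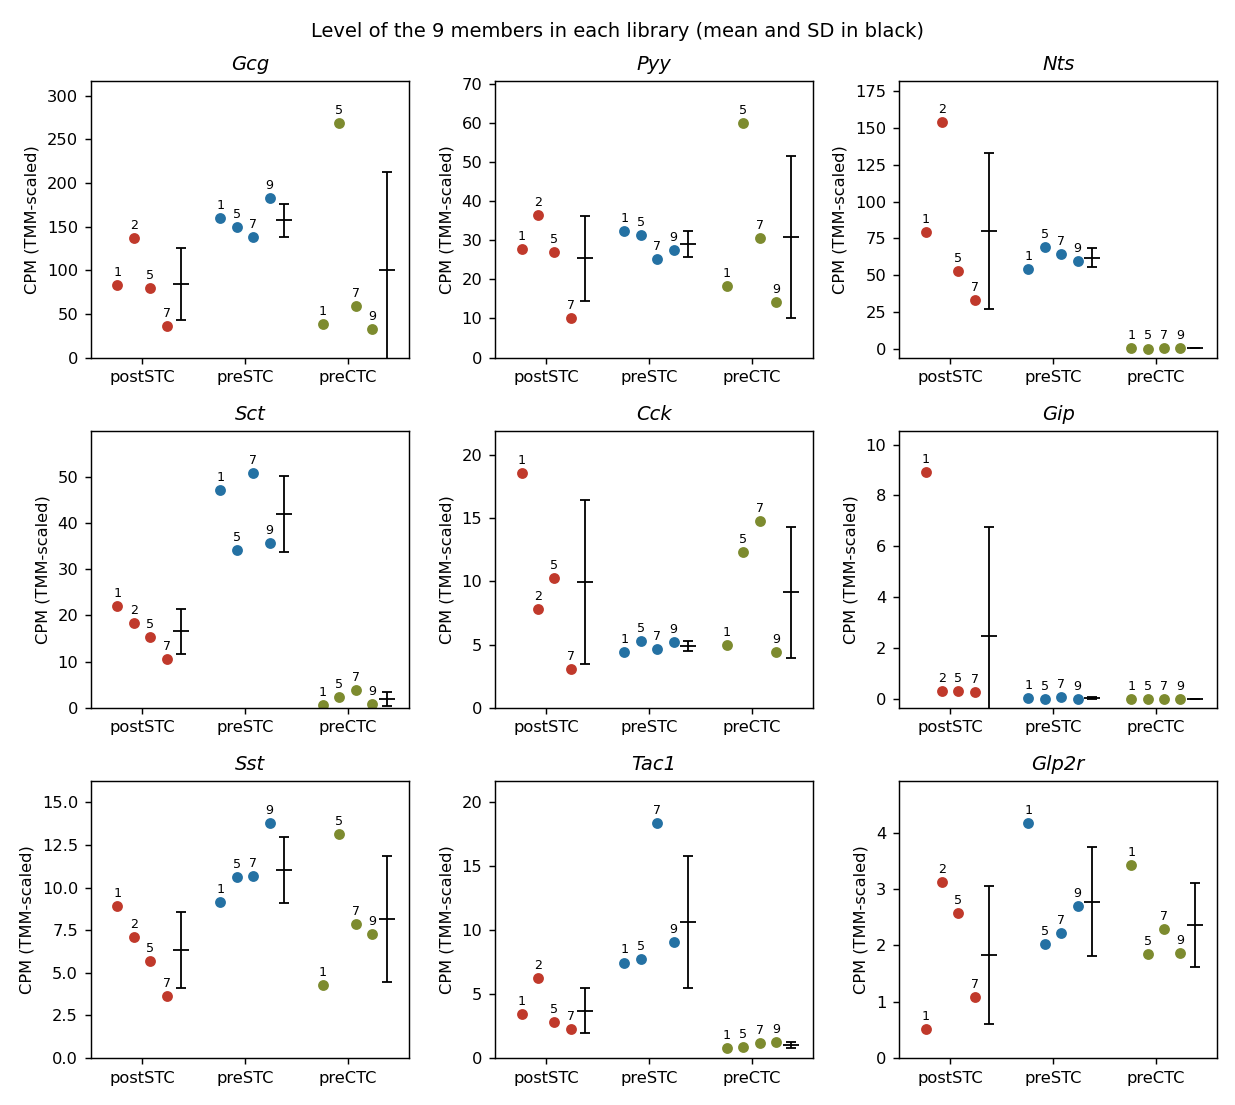
Level of each of the 9 members in each library, in CPM on linear axes starting at or just under 0; points carry the library number, and the black dash and bar give mean and SD of 4 libraries (the lower bars of Gcg in preCTC and of Gip in postSTC run below the axis). Nts, Sct and Tac1 of both STC groups stand above every preCTC library, and single libraries stand apart for Gcg (preCTC5, 268 CPM), Gip (postSTC1, 8.92 CPM) and Tac1 (preSTC7, 18.3 CPM).

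Proglucagon and peptide YY, the L-cell pair, were present in all 12 libraries, and neither passed the test in any comparison. Gcg stood at 83.6, 137, 79.3 and 36.5 CPM in postSTC libraries 1, 2, 5 and 7, at 159, 149.6, 138 and 182 CPM in preSTC1, preSTC5, preSTC7 and preSTC9, and at 38.7, 268, 59.4 and 33.3 CPM in preCTC1, preCTC5, preCTC7 and preCTC9. Every postSTC library lay below every preSTC library, if narrowly for postSTC2, while preCTC spanned both because of preCTC5. The mean was 84.0 ± 41.1 CPM in postSTC, 157 ± 18.9 CPM in preSTC and 99.9 ± 113 CPM in preCTC (SD, n = 4 each). The log2 fold change was -0.90 ± 0.60 for postSTC against preSTC and 0.65 ± 0.60 for preSTC against preCTC (SE; Benjamini-Hochberg adjusted p = 0.317 and 0.413 in edgeR's quasi-likelihood test). Their 95% intervals, -2.21 to 0.41 and -0.65 to 1.96, both include 0. In bulk tissue, fewer cells of a type and less RNA per cell cannot be told apart.

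The preSTC against preCTC value of Gcg turned on 1 library. Without preCTC5 it was 1.84 and passed (edgeR adjusted p = 0.00311), with 138 to 182 CPM in preSTC against 33.3 to 59.4 CPM in the remaining preCTC libraries. postSTC against preCTC gave -0.25 ± 0.60 (SE, edgeR adjusted p = 0.817), and 0.94 without preCTC5 (edgeR adjusted p = 0.104), so its direction also turned on that library. preCTC5 had the highest summed smooth muscle level of its group, 19446 CPM against 11561 to 11773 CPM in the other preCTC libraries, and also the highest Pyy. It is also the library in which Hoxb13 and Atp12a were nearly absent and Car1 was high. What part these have in the Gcg values was not tested.

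Pyy stood at 27.7, 36.4, 27.1 and 10.2 CPM in postSTC, at 32.3, 31.3, 25.3 and 27.5 CPM in preSTC and at 18.2, 59.9, 30.6 and 14.1 CPM in preCTC, values here and below in ascending order of library number. All 3 groups overlapped, and the spread between replicates was widest in preCTC. The log2 fold change was -0.20 (95% interval -1.14 to 0.75) for postSTC against preSTC, -0.08 (-1.02 to 0.86) for preSTC against preCTC and -0.27 (-1.22 to 0.67) for postSTC against preCTC. None passed (edgeR adjusted p = 0.785, 0.903 and 0.713). The intervals do not exclude decreases of about 1 or increases of up to 0.67 to 0.86 on the log2 scale.

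Neurotensin was an abundant transcript in both STC groups and nearly at 0 in preCTC. Nts stood at 79.1, 154, 52.8 and 32.9 CPM in postSTC and at 54.0, 69.1, 64.4 and 59.3 CPM in preSTC, against 0.235, 0.0507, 0.103 and 0.241 CPM in preCTC, where all 4 libraries together held 25 counts. The STC groups overlapped with each other and lay far above every preCTC library. The log2 fold change was 8.58 ± 0.59 for preSTC against preCTC and 8.95 ± 0.59 for postSTC against preCTC (SE, edgeR adjusted p = 1.42e-06 and 1.63e-06), folds of 382 and 494. Between postSTC and preSTC it was 0.37 (95% interval -0.47 to 1.21, edgeR adjusted p = 0.535), and its direction was not stable, at -0.17 without postSTC2 and -0.23 with the replicate block.

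Secretin, which stimulates bicarbonate secretion from the pancreas, was likewise higher in both STC groups than in preCTC. Sct stood at 22.0, 18.3, 15.4 and 10.6 CPM in postSTC, at 47.1, 34.2, 50.8 and 35.6 CPM in preSTC and at 0.523, 2.26, 3.88 and 0.747 CPM in preCTC. No 2 groups overlapped, and postSTC lay between the others. It was 22.6-fold higher in preSTC than in preCTC and 8.94-fold higher in postSTC than in preCTC, log2 fold changes of 4.50 ± 0.54 and 3.16 ± 0.52 (SE, edgeR adjusted p = 8.02e-05 and 0.00163). Against preSTC the postSTC level was 2.53-fold lower, a log2 fold change of -1.34 ± 0.47 that missed the threshold (SE, edgeR adjusted p = 0.0681). This value sat near the line: DESeq2 and limma voom called it (adjusted p = 0.0230 and 0.00814), as did edgeR without preCTC1 or preCTC7 (adjusted p = 0.0382 and 0.0346), and the replicate block did not (edgeR adjusted p = 0.127).

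Cholecystokinin, which drives gallbladder emptying and satiety, was low throughout and no comparison passed. Cck stood at 18.6, 7.81, 10.3 and 3.05 CPM in postSTC, at 4.40, 5.31, 4.67 and 5.18 CPM in preSTC and at 5.00, 12.3, 14.8 and 4.41 CPM in preCTC. preSTC was uniform and low. Of postSTC, 3 libraries lay above its range and postSTC7 below it, and preCTC held libraries inside and above it. The log2 fold change was 1.02 (95% interval -0.06 to 2.11) for postSTC against preSTC, -0.90 (-1.98 to 0.18) for preSTC against preCTC and 0.12 (-0.95 to 1.19) for postSTC against preCTC (edgeR adjusted p = 0.172, 0.172 and 0.896).

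Gip, the incretin of K cells, came mostly from postSTC1. Its counts were 276, 13, 12 and 6 in postSTC, 1, 0, 3 and 0 in preSTC and 0 in each preCTC library, too few for the filter, so Gip has no place among the tested genes. Every postSTC library held more Gip counts than any other library, but 276 of the 307 in the group came from postSTC1. Scaled for library size, the summed counts were 85.1-fold higher in postSTC than in preSTC, or 11.2-fold without postSTC1. Against preCTC they were at least 123-fold higher, or at least 16.3-fold without postSTC1, where the floor is 3 counts over the group. In an edgeR fit of all 18749 genes with no filter, postSTC differed from preSTC and from preCTC (adjusted p = 0.0353 and 0.0189), and preSTC did not pass against preCTC (adjusted p = 0.394).

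Somatostatin, which inhibits the release of most other gut hormones, did not pass in any comparison. Sst stood at 8.92, 7.07, 5.67 and 3.63 CPM in postSTC, at 9.14, 10.6, 10.7 and 13.8 CPM in preSTC and at 4.26, 13.1, 7.87 and 7.28 CPM in preCTC. The postSTC libraries all lay below the preSTC libraries, by a hair for postSTC1, and preCTC overlapped both. The log2 fold change was -0.80 (95% interval -1.53 to -0.08) for postSTC against preSTC, 0.44 (-0.28 to 1.16) for preSTC against preCTC and -0.36 (-1.08 to 0.36) for postSTC against preCTC (edgeR adjusted p = 0.113, 0.314 and 0.504).

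Tac1, the precursor of substance P and neurokinin A, was the single member called in all 3 comparisons. It stood at 3.46, 6.24, 2.77 and 2.28 CPM in postSTC, at 7.45, 7.74, 18.3 and 9.05 CPM in preSTC and at 0.759, 0.887, 1.13 and 1.25 CPM in preCTC. No 2 groups overlapped, with preSTC highest and preCTC lowest. It was 10.5-fold higher in preSTC and 3.66-fold higher in postSTC than in preCTC, log2 fold changes of 3.40 ± 0.40 and 1.87 ± 0.39 (SE, edgeR adjusted p = 7.28e-05 and 0.00682). In postSTC it was 2.87-fold lower than in preSTC, with -1.52 ± 0.37 as its log2 fold change (SE, edgeR adjusted p = 0.0168). That last call was lost without preSTC7, where Tac1 was highest (-1.13, edgeR adjusted p = 0.0540), and in a replicate-blocked fit of the 8 libraries compared (-1.86, edgeR adjusted p = 0.119), and it held without postSTC7 (-1.37, edgeR adjusted p = 0.0297).

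Because enteric neurons also express Tac1, a list of 16 neuron markers was read beside it. Their summed CPM was 88.8 to 151 in postSTC, 92.0 to 131 in preSTC and 160 to 222 in preCTC. The 2 STC groups thus overlapped and preCTC was highest. Tac1 was lowest in preCTC. None of the 16 was called in postSTC against preSTC, by edgeR, DESeq2 or limma voom or at an unadjusted edgeR p under 0.05 (0 of 16 each), and 7 were lower in preSTC than in preCTC. Of all tested genes, 19.6% were lower in that last comparison. All 16 were detected in each group. What part neurons have in the Tac1 values was not tested.

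Glp2r, the receptor for the Gcg product GLP-2, was a low transcript for which no comparison passed. It stood at 0.517, 3.13, 2.58 and 1.08 CPM in postSTC, at 4.16, 2.02, 2.22 and 2.69 CPM in preSTC and at 3.43, 1.85, 2.29 and 1.86 CPM in preCTC. The groups overlapped throughout, and postSTC1 was the lowest of the 12. The log2 fold change was -0.59 (95% interval -1.64 to 0.47) for postSTC against preSTC, 0.23 (-0.81 to 1.28) for preSTC against preCTC and -0.36 (-1.41 to 0.70) for postSTC against preCTC (edgeR adjusted p = 0.427, 0.728 and 0.665). Ordered by mean, preSTC (2.77 ± 0.97 CPM), preCTC (2.36 ± 0.74 CPM) and postSTC (1.83 ± 1.23 CPM) did not differ beyond their spread (SD, n = 4 each).

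**Figure D2:**
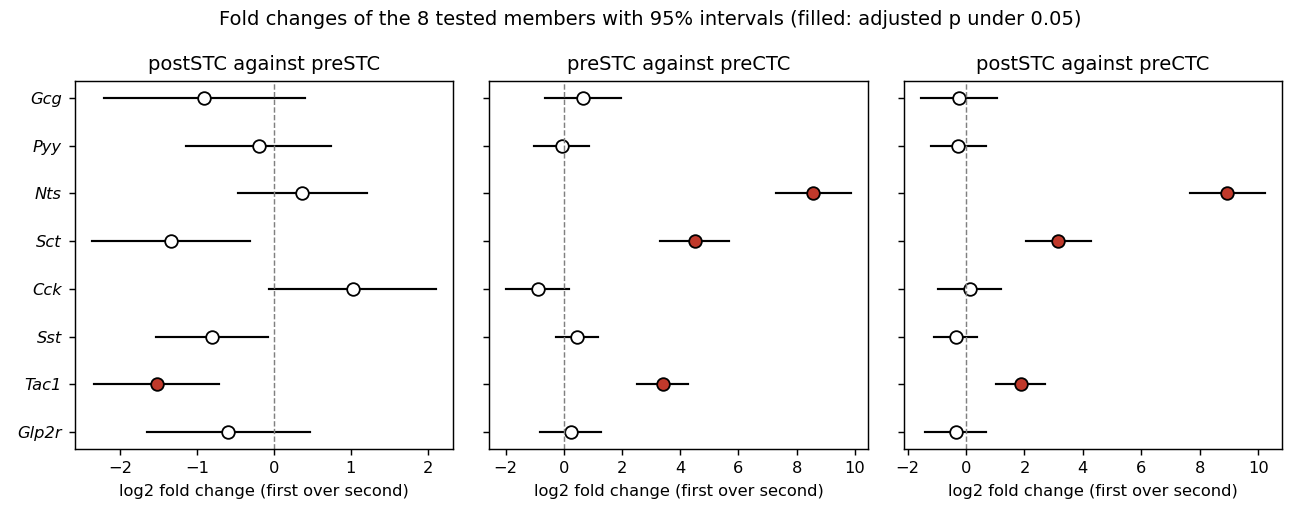
Log2 fold changes of the 8 tested members in the 3 comparisons with 95% intervals; filled points passed an edgeR adjusted p of 0.05. Nts, Sct and Tac1 are filled in both comparisons against preCTC, and Tac1 is the only filled point in postSTC against preSTC, at -1.52.

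Counted over the 8 tested members, 1 was called in postSTC against preSTC (12.5%, lower), against 18.0% of all tested genes. In preSTC against preCTC 3 were called (37.5%, all higher), against 38.7% of all genes, and in postSTC against preCTC 3 (37.5%, all higher), against 16.6%. By direction, 11.1% of all tested genes were higher and 6.90% lower in postSTC against preSTC, 19.1% higher and 19.6% lower in preSTC against preCTC, and 9.27% higher and 7.37% lower in postSTC against preCTC. The share of members called was near or below the background in the comparisons that involve preSTC. The libraries of the groups did not overlap for 4 members in postSTC against preSTC (Gcg, Sct, Sst and Tac1, all lower), or 50% against 22.1% of all genes (11.9% higher and 10.2% lower). For Nts, Sct and Tac1 they did not overlap in preSTC against preCTC and in postSTC against preCTC, 37.5% of members each against 45.0% of all genes (22.5% higher and 22.5% lower) and 18.1% (9.54% higher and 8.60% lower). The median log2 fold change of the 8 was -0.70, 0.55 and -0.06 in the 3 comparisons, beside 0.04, -0.02 and 0.04 over all tested genes. The 2 comparisons against preCTC share its 4 libraries, and each group enters 2 of the 3 comparisons, so the comparisons are not independent of each other.

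Levels of different hormones were compared per length, as the deposited FPKM (fragments scaled for transcript length and for the library's total), each hormone taken as a share of the summed FPKM of the 8 hormone genes in its library. By this measure Nts was the leading hormone transcript in postSTC, at 40.3 ± 8.8%, ahead of Pyy at 20.8 ± 3.6% and Sct at 19.0 ± 5.0% (SD, n = 4). In preSTC the leading share was that of Sct, 34.2 ± 5.3%, ahead of Nts at 25.7 ± 3.1% and Pyy at 18.5 ± 2.4%. In preCTC Pyy made up most of the summed FPKM of the 8 genes, at 53.5 ± 4.2%. It was followed by Gcg at 17.2 ± 7.3%, Sst at 12.8 ± 5.1% and Cck at 11.3 ± 3.9%, with Sct at 4.16 ± 2.91% and Nts at 0.301 ± 0.268%. A share also depends on the other genes in the sum, and Insl5 is not among them. The Pyy share, 49.9 to 59.6% in preCTC, lay above the 18.4 to 26.2% of postSTC and the 15.2 to 20.5% of preSTC, although the CPM of Pyy overlapped in all groups. The summed CPM of the 8 hormones ran from 99.4 to 367 in postSTC and from 61.3 to 357 in preCTC, and stayed within 308 to 333 in preSTC.

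**Figure D3:**
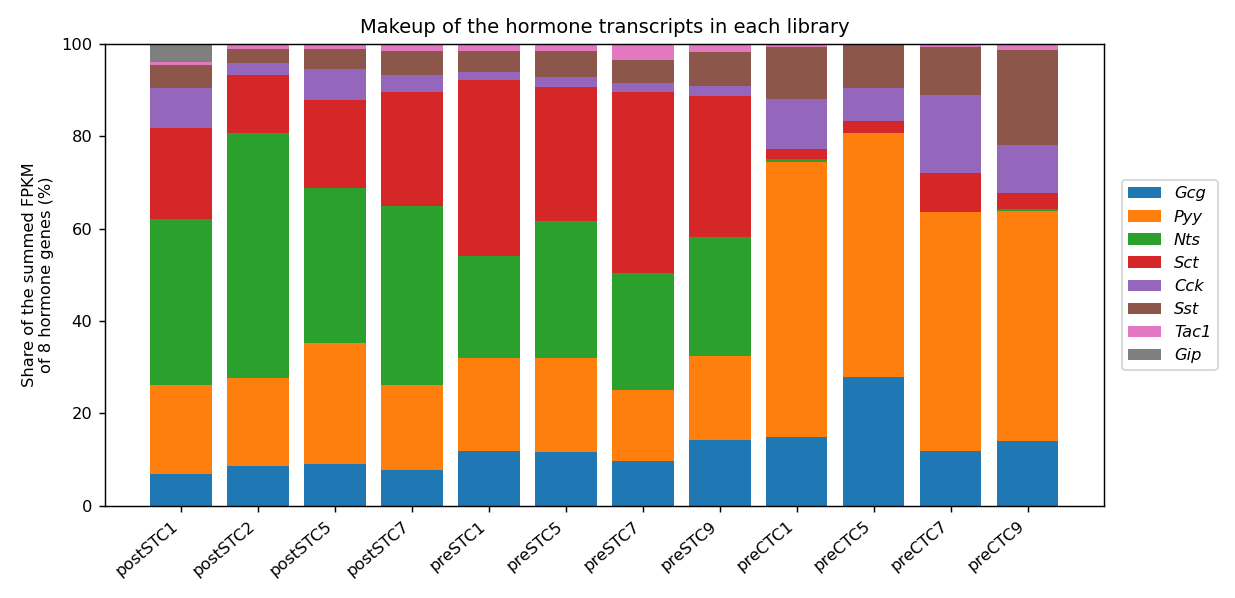
Share of each hormone gene in the summed FPKM of 8 hormone genes, in percent, 1 bar per library. Nts and Sct fill much of the bars of postSTC and preSTC and little of those of preCTC, where Pyy takes 49.9 to 59.6%; Gip is visible in postSTC1 alone, at 3.89%.

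Ratios to Gcg within a library do not depend on library size, and were added after the member values had been seen. The FPKM of Pyy over that of Gcg was 2.80, 2.24, 2.88 and 2.36 in postSTC, 1.71, 1.76, 1.55 and 1.27 in preSTC and 3.98, 1.88, 4.35 and 3.57 in preCTC. Every postSTC and every preCTC library lay above every preSTC library. The ratio was 1.64-fold higher in postSTC than in preSTC, and that of preSTC was 0.476 times that of preCTC (two-sided exact permutation p = 0.0286 each, adjusted p = 0.0367 over 9 tests). It did not pass between postSTC and preCTC (0.778 times, exact permutation p = 0.229, adjusted p = 0.257). Without preCTC5 this last test passed (adjusted p = 0.0321, exact permutation).

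The FPKM of Nts over that of Gcg was 5.22, 6.23, 3.68 and 4.97 in postSTC, 1.87, 2.55, 2.58 and 1.80 in preSTC and 0.0336, 0.00104, 0.00956 and 0.0399 in preCTC. No 2 groups overlapped, with postSTC highest, and the postSTC ratio was 2.28-fold that of preSTC (exact permutation p = 0.0286, adjusted p = 0.0367). Relative to preCTC it was 459-fold in postSTC and 202-fold in preSTC, with the same exact p. The Nts level alone did not separate postSTC from preSTC, whereas its ratio to Gcg did.

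The FPKM of Sct over that of Gcg was 2.86, 1.46, 2.11 and 3.15 in postSTC, 3.21, 2.49, 4.01 and 2.13 in preSTC and 0.147, 0.0915, 0.711 and 0.244 in preCTC. The STC groups overlapped (0.798 times in postSTC, exact permutation p = 0.343), and both lay above preCTC, 10.4-fold in postSTC and 13.1-fold in preSTC (exact permutation p = 0.0286, adjusted p = 0.0367 each). The smallest p that the 70 splits of 4 against 4 allow is 0.0286. Taken as differences within shared replicate numbers, no ratio could pass, since 3 numbers cannot give an exact p below 0.25 and 4 numbers none below 0.125. Leaving out any 1 preSTC library ended each of the 7 ratio calls. Leaving out any 1 postSTC library also ended that of Sct over Gcg in postSTC against preCTC. The adjusted p of the ended calls was 0.0514 or 0.0735 (exact permutation). The 9 tests share 1 adjustment, so a library left out of 1 group also moved the adjusted p of comparisons without that group.

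**Figure D4:**
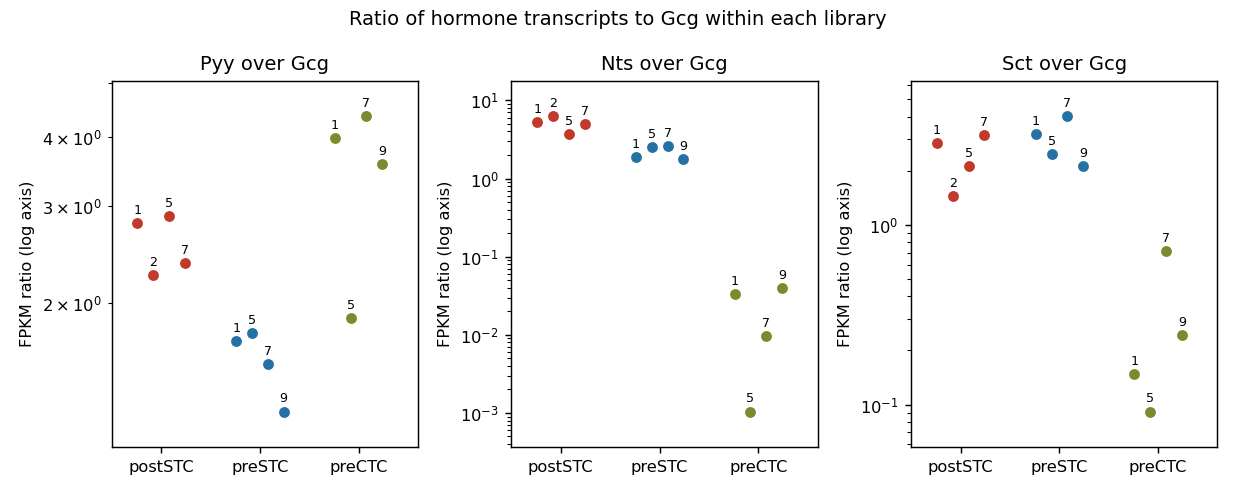
Ratio of the FPKM of Pyy, Nts and Sct to that of Gcg within each library, on log axes, points labelled by library number. Pyy over Gcg is lowest in preSTC (1.27 to 1.76), Nts over Gcg is highest in postSTC (3.68 to 6.23), and Sct over Gcg is lowest in preCTC (0.0915 to 0.711).

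Most members are made by an epithelial cell type, and the level of epithelium markers varied between libraries, so each member was also set against 12 epithelium markers as log2 CPM minus their mean log2 CPM. The markers summed to 8983 to 18380 CPM in postSTC, 17486 to 22024 CPM in preSTC and 12165 to 17303 CPM in preCTC, and 12 smooth muscle markers to 7070 to 10779, 4005 to 6016 and 11561 to 19446 CPM in the same order of groups. Relative to epithelium, 8 of 24 tests reached the smallest exact permutation p of 0.0286 and 0 passed after adjustment over the 24 (adjusted p = 0.0857, exact permutation). With only 8 of the 24 at the smallest possible p, no test could pass, however large its difference. The lack of a pass therefore says nothing about the members. In postSTC against preSTC the smallest p was reached by Sct (-0.88). In preSTC against preCTC it was reached by Nts (8.25), Sct (4.45), Tac1 (2.85) and Cck (-1.16), and in postSTC against preCTC by Nts (8.87), Sct (3.57) and Tac1 (1.81). On this scale postSTC against preSTC was -1.04 for Tac1 and -0.56 for Gcg, both smaller in size than on the plain CPM scale (exact permutation p = 0.0571 and 0.143).

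**Figure D5:**
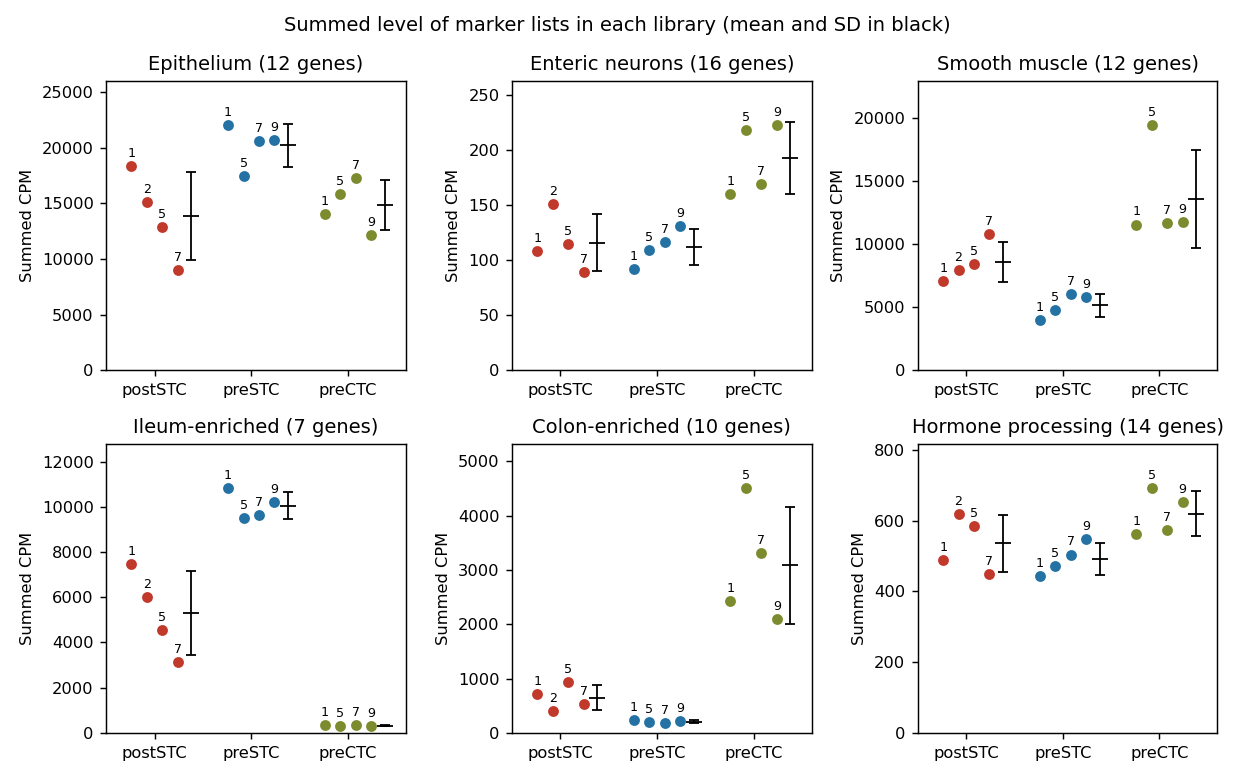
Summed CPM of 6 marker lists in each library on linear axes from 0, with mean and SD of 4 libraries in black. Ileum-enriched genes are highest in preSTC (9506 to 10839), colon-enriched genes in preCTC (2095 to 4512) and smooth muscle markers in preCTC (11561 to 19446), with postSTC between the others in all 3 panels.

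The lists of related genes that follow were drawn up with earlier results of these data known. Beside their counts stand the shares of all tested genes called higher and lower. These were 11.1% and 6.90% in postSTC against preSTC, 19.1% and 19.6% in preSTC against preCTC, and 9.27% and 7.37% in postSTC against preCTC. No list was tested against these shares. Of 14 genes of hormone processing and storage, 2 were higher and 0 lower in postSTC against preSTC, 1 higher and 4 lower in preSTC against preCTC, and 0 higher and 1 lower in postSTC against preCTC (medians -0.18, -0.52 and -0.42 on the log2 scale). The convertase Pcsk1, which releases GLP-1 and GLP-2 from proglucagon, stood at 7.71 ± 2.96 CPM in postSTC, 11.2 ± 0.60 CPM in preSTC and 4.61 ± 2.04 CPM in preCTC (SD, n = 4 each). It was higher in preSTC than in preCTC (log2 fold change 1.28, edgeR adjusted p = 0.00832). In contrast Pam, which amidates peptides, Cplx2, a complexin of vesicle release, and the convertase inhibitor Pcsk1n were lower in preSTC than in preCTC (-0.94, -1.32 and -1.05, edgeR adjusted p = 0.00179, 1.04e-04 and 5.12e-04). Cplx2 and Pcsk1n were the 2 called in postSTC against preSTC (0.54 and 0.53, edgeR adjusted p = 0.0391 and 0.0455), and with the replicate block the list had 0 called. With 1 library left out Cplx2 kept this call in 5 of 12 fits and Pcsk1n in 3 (edgeR adjusted p up to 0.103 and 0.121). Neurons express Pam, Cplx2 and Pcsk1n as well, and 7 of 16 enteric neuron markers were also lower in preSTC than in preCTC. Their part in these values was not tested. The fourth gene lower in that comparison was Cpe, a carboxypeptidase of prohormone processing, which was chosen after its values were seen (-0.72, edgeR adjusted p = 0.0118).

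Of 16 tested transcription factors of the enteroendocrine lineage, 1 was higher in postSTC against preSTC, 1 was higher and 4 lower in preSTC against preCTC, and 1 was lower in postSTC against preCTC. Foxa2, a forkhead factor, stood at 12.8 ± 5.10 CPM in postSTC, 4.85 ± 1.05 CPM in preSTC and 32.0 ± 8.54 CPM in preCTC (SD, n = 4 each), and passed in all 3 comparisons (1.40, -2.72 and -1.32, edgeR adjusted p = 0.00998, 6.14e-05 and 0.0113). Foxa1, Sox4 and, named after its values were seen, Etv1 were lower in preSTC than in preCTC (-1.17, -0.85 and -0.67, edgeR adjusted p = 0.00269, 0.00859 and 0.0190), and Rfx6, a factor of hormone cell differentiation, was higher (1.61, edgeR adjusted p = 0.0189, and up to 0.0556 with 1 library left out). Of 9 tested other gut hormone genes, 0 were called in postSTC against preSTC or against preCTC in edgeR. In those comparisons an unadjusted edgeR p under 0.05 was reached by 2 and 3 of the 9, and DESeq2 called 0 and 2 and limma voom 1 and 1. In preSTC against preCTC 3 were lower, namely Penk (enkephalins, -1.21), Ppy (pancreatic polypeptide, -2.72) and Adm (adrenomedullin, -0.64), whose call held in 8 of 12 fits with 1 library left out (edgeR adjusted p up to 0.0739).

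Receptors for the member hormones were called higher in postSTC than in preSTC in 4 of 15 cases, beside 11.1% of all tested genes. Of 15 tested receptor genes, 4 were higher and 0 lower in postSTC against preSTC, 1 higher and 6 lower in preSTC against preCTC, and 1 higher and 4 lower in postSTC against preCTC. Npy1r, a receptor for Pyy and neuropeptide Y, stood at 3.40 ± 0.93 CPM in postSTC, 0.646 ± 0.171 CPM in preSTC and 3.01 ± 0.42 CPM in preCTC (SD, n = 4 each). Every postSTC and preCTC library lay above every preSTC library (2.39 and, for preSTC against preCTC, -2.21, edgeR adjusted p = 7.88e-04 and 1.41e-04). The secretin receptor Sctr, chosen after its values were seen, stood at 4.82, 12.5, 16.9 and 2.69 CPM in postSTC, at 1.69, 1.42, 0.945 and 0.897 CPM in preSTC and at 0.157, 0.431, 0.540 and 0.891 CPM in preCTC. It was 7.45-fold higher in postSTC than in preSTC, while its ligand Sct was 2.53-fold lower there without passing (2.90 for Sctr, edgeR adjusted p = 0.00801), and 18.1-fold higher in postSTC than in preCTC (edgeR adjusted p = 0.00108).

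The somatostatin receptors Sstr1 and Sstr2 were lowest in preSTC. Sstr1 averaged 10.7 CPM in postSTC, 3.09 CPM in preSTC and 66.1 CPM in preCTC, and Sstr2 averaged 0.988, 0.142 and 7.75 CPM in the same order of groups. Both passed in postSTC against preSTC (1.79 and 2.83, edgeR adjusted p = 0.0331 and 0.0481) and lost that call with the replicate block (edgeR adjusted p = 0.0794 and 0.137), which left 2 of the 4 receptor calls. With 1 library left out, Sstr1 kept its call in 8 of 12 fits, losing it without postSTC5, preSTC1, preSTC5 or preSTC7 (edgeR adjusted p up to 0.0968). Sstr2, at 0 CPM in postSTC7, kept its call in 2 of 12, those without postSTC1 or postSTC7 (edgeR adjusted p up to 0.142). Tacr2, a tachykinin receptor of smooth muscle, was lower in preSTC and in postSTC than in preCTC (-2.27 and -1.44, edgeR adjusted p = 5.12e-04 and 0.0160), the opposite direction to its ligand gene Tac1. The smooth muscle markers were also lowest in preSTC and highest in preCTC, and their part in the receptor values was not tested. Of the receptors, Ntsr2 was the one higher in preSTC than in preCTC (3.47, edgeR adjusted p = 0.0132), and was named after its values were seen. It was near the floor, at 0.104 to 1.16 CPM in preSTC and 0 to 0.105 CPM in preCTC. The preCTC libraries held 9 counts together, and the 2 groups overlapped.

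Of 14 genes named as effectors of GLP-2, 3 were higher and 0 lower in postSTC against preSTC, 2 higher and 4 lower in preSTC against preCTC, and 1 lower in postSTC against preCTC. The growth factor Igf1, which mediates growth effects of GLP-2 in mice, stood at 62.9, 96.1, 224 and 129 CPM in postSTC, at 36.4, 23.9, 46.1 and 27.8 CPM in preSTC and at 44.8, 58.3, 60.4 and 104 CPM in preCTC. Every postSTC library lay above every preSTC library, a log2 fold change of 1.93 (edgeR adjusted p = 0.00667), while Gcg (-0.90) and Glp2r (-0.59) did not pass between the same groups. The other 2 were Igf2 (1.13, edgeR adjusted p = 0.0243) and, named after its values were seen, Nos3, the endothelial nitric oxide synthase (1.26, edgeR adjusted p = 0.0124). With the replicate block 2 of the 3 were called, Igf1 and Igf2. Igf2 lost its call without postSTC5, preSTC1, preSTC5 or preSTC7 (edgeR adjusted p up to 0.0673). Nos1, the neuronal synthase, was lower in preSTC and in postSTC than in preCTC (-1.79 and -1.62, edgeR adjusted p = 0.00453 and 0.0173). Ctnnb1, encoding beta-catenin, was higher in preSTC than in preCTC (0.61, edgeR adjusted p = 0.00202). Fibroblast markers, 10 genes, summed to 2772 to 5011 CPM in postSTC, 2184 to 2825 CPM in preSTC and 5877 to 8786 CPM in preCTC, with 6 of 10 higher in postSTC than in preSTC (3 of 10 with the replicate block, and 0 of 10 with the block in the 8 libraries compared). Their part in the Igf1 value was not tested.

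The peptidases that end hormone action were mostly higher in both STC groups than in preCTC. All 5 were called in preSTC against preCTC, 4 higher and 1 lower, and 3 were higher in postSTC against preCTC. With 1 library left out the first of these counts ran from 2 to 5, at 2 without preCTC7, preSTC1 or preSTC7 and at 3 without preCTC1 or preCTC9. The lower one was Fap, a peptidase of activated fibroblasts (-1.17, edgeR adjusted p = 0.0395), named after its values were seen. In postSTC against preSTC 0 of 5 were called by edgeR, DESeq2 or limma voom, and 2 had an unadjusted edgeR p under 0.05. Dpp4, which inactivates GLP-1 and GLP-2, averaged 758 ± 261 CPM in postSTC, 1185 ± 118 CPM in preSTC and 196 ± 71.5 CPM in preCTC (SD, n = 4 each). It was 6.04-fold higher in preSTC and 3.86-fold higher in postSTC than in preCTC (edgeR adjusted p = 8.02e-05 and 0.00125). Anpep, aminopeptidase N, was higher by 6.64 and 6.06 on the log2 scale in those comparisons (edgeR adjusted p = 1.46e-07 and 3.71e-07), and Mme, neprilysin, by 2.18 in preSTC against preCTC (edgeR adjusted p = 0.0223, and up to 0.0583 with 1 library left out). Ace was higher in both (1.61 and 2.92, edgeR adjusted p = 0.0469 and 0.00745), with 816 CPM in postSTC1 against 79.3 to 196 CPM in the other postSTC libraries. Its call in postSTC against preCTC held with any 1 library left out (1.80 to 3.27). That in preSTC against preCTC was lost without any 1 preSTC library and without preCTC1, preCTC7 or preCTC9 (edgeR adjusted p up to 0.111).

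Of 10 tested genes by which enteroendocrine cells sense nutrients and bile acids, 2 were higher and 0 lower in postSTC against preSTC, 2 higher and 4 lower in preSTC against preCTC, and 4 higher and 3 lower in postSTC against preCTC. Casr, the calcium and amino acid sensor, stood at 2.46, 2.37, 4.79 and 0.493 CPM in postSTC, at 0.175, 0.388, 0.108 and 0.252 CPM in preSTC and at 3.71, 1.44, 1.85 and 2.26 CPM in preCTC. Every postSTC library lay above every preSTC library and the level overlapped with preCTC (3.44 for postSTC against preSTC, edgeR adjusted p = 0.00493). The second of those higher in postSTC was Sucnr1, the succinate receptor, named after its values were seen (2.50, edgeR adjusted p = 0.0121). The peptide transporter Slc15a1 was higher in preSTC and postSTC than in preCTC (6.00 and 4.96, edgeR adjusted p = 2.98e-05 and 2.35e-04), as was the glucose transporter Slc5a1 (2.20 and 2.46, edgeR adjusted p = 0.00151 and 0.00211). The irritant channel Trpa1 was lower in both (-2.95 and -1.65, edgeR adjusted p = 0.00145 and 0.0488). The second of these calls was kept in 3 of 12 fits with 1 library left out, those without postSTC5, preSTC1 or preSTC9, and otherwise lost (edgeR adjusted p up to 0.116). Pancreatic markers, read because Gcg, Pyy, Sst and Ppy are islet genes too, gave 3 tested genes of 11 with 0 called in any comparison. Of the list, Ins2 (3.25 to 9.38 CPM) and Cela1 (8.82 to 19.8 CPM), named after their values were seen, were present in all 12 libraries. What part pancreatic transcripts have in the member values was not tested. The trypsinogen and amylase genes Prss1 and Amy2a3 were at 0 in all postSTC and preSTC libraries. In preCTC1 and preCTC9 Prss1 was at 0.366 and 0.530 CPM, Amy2a3 at 0.0262 and 0.265 CPM and the chymotrypsinogen gene Ctrb1, named after its values were seen, at 4.16 and 1.59 CPM.

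The replicate numbers were taken to pair the postSTC and preSTC samples, which the labels do not state. In a replicate-blocked edgeR fit of those 8 libraries 66 of all genes were called, 58 higher and 8 lower. None of the 66 stood in the lists of hormone processing, transcription factors, receptors, nutrient sensors, peptidases or GLP-2 effectors (0 each). Without the block the same 8 libraries gave 1072 genes higher and 856 lower, so the block removed most calls over all genes. The groups share only 3 replicate numbers, and libraries without a partner do not inform the blocked comparison. With so few calls, 0 in a list does not show that its genes are unchanged. For Sctr, Igf1, Npy1r, Casr and Foxa2 the blocked fit of 8 libraries gave edgeR adjusted p = 0.122, 0.142, 0.0917, 0.0812 and 0.0847. The block in the fit of all 12 libraries kept all 5 calls. What part the few shared numbers have in this was not tested.

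As a description of which genes followed the members over the 12 libraries, Pearson's r of log2 CPM was highest for Gcg with Chgb (0.944), the granule protein chromogranin B, then LOC689961 (0.929), the cation channel gene Trpm4 (0.925), Rnf152 (0.923) and Tph1 (0.922), the serotonin-synthesis enzyme of enterochromaffin cells. For Pyy the leading genes were Mpp6 (0.923), Cdh20 (0.917), LOC689961 (0.885), the guanylin gene Guca2a (0.875) and Brinp3 (0.873). For Glp2r they were Pdgfrl (0.894), Fmnl2 (0.891), RGD1560813 (0.873), the endothelial receptor gene Kdr (0.865) and Hcar2 (0.859). The 12 points share groups, depth and tissue makeup, and preCTC5, the highest library for Gcg, carries weight in the first of these.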

How the data were processed

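The authors deposited a table of whole read counts per gene and a table of FPKM values. The counts come from polyadenylated RNA sequenced from 12 libraries, with HISAT2, HTSeq and fastp named as tools and mRatBN7.2 as the genome build, per the submitters' processing notes. Their versions, settings and use of strand are not given in the sources used. The series' design text describes another species and other tools and was not used. Within each gene the authors' FPKM was proportional to the count over the column total (largest relative deviation 8.88e-16), so FPKM of postSTC7 is not corrected for its 16 dominant genes. Of 18749 gene identifiers, 18531 (98.8%) matched RefSeq's GRCr8 table, used for names and promoters only. Replicates differed by more than sampling noise (chi-square per gene of at least 32.0), so none was treated as a duplicate. There were 0 other value columns.

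Analyses used R 4.3.3, edgeR 4.0.16, limma 3.58.1 and DESeq2 1.42.0. After filterByExpr, 15704 genes (83.8%) entered 1 quasi-likelihood model with group as its only term over all 12 libraries, scaled by TMM. P-values are two-sided and Benjamini-Hochberg adjusted over all tested genes, with a threshold of 0.05. The standard error is the log2 fold change over the square root of F. The model was tested on simulated data for postSTC against preSTC, with 100 genes changed 4-fold and 100 changed 2-fold. It recovered 88% of the 4-fold and 45% of the 2-fold changes, and 4.32% of its calls were false. The changed genes were drawn from those above a minimum mean count, and no TMM factors entered the simulation. The makeup of postSTC7 was thus not reproduced. These rates may not hold for low members or where many more genes change. Exact permutation tests are two-sided over the 70 splits of 4 against 4 libraries, on log2 values with a prior count of 0.5 for CPM. Promoter letters come from RefSeq.

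Members and gene lists were chosen with earlier results of these data known, and up to 4 genes per list with the smallest adjusted p in any comparison are named. Exceptions are marked. The 5 genes most like Gcg, Pyy and Glp2r are those with the highest Pearson r of log2 CPM (prior count 2). Samples with the same replicate number deviated together in postSTC and preSTC, with correlations of 0.236, 0.158 and 0.168 over genes for numbers 1, 5 and 7, so these numbers were taken to pair the samples. In preSTC and preCTC the correlations ran from -0.03 to 0.222, and in postSTC and preCTC from -0.016 to 0.220. Both were below 0 for number 5, and those groups were not taken as paired. The replicate-blocked fits nevertheless treated equal numbers as shared in preCTC too, so their values against preCTC rest on a pairing that was not assumed. For number 1 both were close to the 0.236 of postSTC and preSTC, so the correlations do not establish pairing. The main fit leaves any pairing out. Reads were not collapsed by molecular identifiers as far as the labels say, so floors cover counting error only. Alternatives were other scalings and filters, DESeq2, limma, the replicate block and leaving out libraries.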

Additional observations from a re-analysis of the deposited data

Results flagged for a closer look

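In 3 of the 26 groups of 4 libraries checked, 1 member stood far from the other libraries of its group, and chance flags about 1 in 20 such groups. Gcg in preCTC5 was at 268 CPM, with the next preCTC library at 59.4 CPM, and Pyy was also highest in that library at 59.9 CPM. Gip in postSTC1 was at 8.92 CPM, with the next postSTC library at 0.320 CPM, and Cck was also highest of the group there, at 18.6 CPM. Tac1 in preSTC7 was at 18.3 CPM, with the next preSTC library at 9.05 CPM, and Sct was highest of the group there, at 50.8 CPM.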

How the results depend on the processing

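Nts, Sct and Tac1 kept their direction and calls against preCTC under RLE and upper quartile scaling, with no filter on low counts and with any 1 library left out. In a replicate-blocked fit of the 8 libraries of postSTC and preCTC, groups not taken as paired, 1 member was called. Sct and Tac1 lost their calls in postSTC against preCTC there (edgeR adjusted p = 0.194 and 0.193). Tac1 also lost that call in limma on log2(FPKM + 1) and log2(FPKM + 0.1) (adjusted p = 0.0952 and 0.0535). In postSTC against preSTC the number of members called was 2 by DESeq2, by limma voom and in an edgeR fit of the 8 libraries, and 0 with log2(FPKM + 0.1), with postSTC2 and postSTC5 alone (chosen after seeing the data) and in the blocked fit of 8 libraries. Leaving out 1 library gave 0 to 2 members in postSTC against preSTC, 3 to 4 in preSTC against preCTC and 3 in postSTC against preCTC. The replicate block over 12 libraries changed no member's call, with Tac1 at an edgeR adjusted p of 0.0270 in postSTC against preSTC.

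All genes called in postSTC against preSTC numbered 2833 as reported, 521 and 653 with log2(FPKM + 1) and log2(FPKM + 0.1), 1746 with the replicate block, 66 with the block in 8 libraries and 1609 to 3684 with 1 library left out. In preSTC against preCTC they numbered 6077, with 3824 and 3753 from the 2 FPKM scales and 5037 to 7258 with 1 library left out. In postSTC against preCTC they numbered 2612, with 1668 and 1569 from FPKM, 1399 with the block, 1455 in 8 libraries, 151 with the block in 8 libraries and 1780 to 3123 with 1 library left out. The FPKM scales shifted the median of all genes by up to -0.16 in preSTC against preCTC and -0.24 in postSTC against preCTC. With log2(FPKM + 1) 1126 genes were higher and 2698 lower in preSTC against preCTC, where the counts gave 2995 and 3082, and 452 higher and 1216 lower in postSTC against preCTC, where they gave 1455 and 1157. Set against smooth muscle markers in place of epithelium, 4 members passed in postSTC against preSTC, 7 in preSTC against preCTC and 3 in postSTC against preCTC, where 0 had passed. Whether any of these tests can pass depends on how many reach the smallest exact permutation p, so the counts do not measure the size of a difference.

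Among the members, directions changed only for values that had not passed. With postSTC2 and postSTC5 alone they became 0.13 (Pyy) and 0.054 (Glp2r) in postSTC against preSTC, and 0.11 (Gcg), 0.043 (Pyy), -0.015 (Cck) and 0.27 (Glp2r) against preCTC. The block gave -0.23 for Nts in postSTC against preSTC and 0.085 for Pyy in preSTC against preCTC, and in 8 libraries -0.29, 0.13 and, for Cck in postSTC against preCTC, -0.21. The FPKM scales gave Cck -0.17 and -0.23 there, and limma voom gave 0.20 for Gcg there and 0.15 for Pyy in preSTC against preCTC. Against smooth muscle, Cck was -0.042, Pyy -1.13 and Nts -0.65 in postSTC against preSTC, Cck 0.60, Glp2r 1.53 and Pyy 1.45 in preSTC against preCTC (these last 2 passing, exact permutation adjusted p = 0.0490 each), and Pyy 0.33 and Sst 0.19 in postSTC against preCTC. As differences within shared numbers relative to epithelium, Pyy was -0.064 in postSTC against preSTC and Cck -0.067 and Gcg -0.30 in postSTC against preCTC. The causes were not tested.

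With 1 library left out, values that changed direction ranged as follows. In postSTC against preSTC, Pyy ran from -0.42 to 0.053 and Nts from -0.17 to 0.62, and relative to epithelium Pyy from -0.026 to 0.38 and Glp2r from -0.70 to 0.26. In preSTC against preCTC, Pyy ran from -0.32 to 0.47 and Glp2r from -0.028 to 0.47, and relative to epithelium Pyy from -0.53 to 0.070 and Sst from -0.17 to 0.33. In postSTC against preCTC, Gcg ran from -0.59 to 0.94, Pyy from -0.51 to 0.27 and Cck from -0.37 to 0.45, and relative to epithelium Gcg from -0.061 to 0.85, Pyy from -0.38 to 0.22, Cck from -0.17 to 0.39 and Glp2r from -0.93 to 0.031. Gip, with 0 to 307 counts per group, was too low for the filtered test. Glp2r had 264 to 399 counts per group, and its CPM varied by 31.6 to 67.4% between the libraries of a group.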

Other observations

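The spread between replicates, not tested between groups, was smallest in preSTC for 6 of the 8 tested members and in preCTC for Tac1 and Glp2r. In postSTC the coefficient of variation of CPM over the 4 libraries was 48.9% for Gcg, 43.2% for Pyy, 66.6% for Nts, 65.4% for Cck, 29.0% for Sct, 35.4% for Sst and 47.9% for Tac1. In preSTC it was 12.0% for Gcg, 11.2% for Pyy, 10.5% for Nts, 8.78% for Cck, 19.7% for Sct, 17.5% for Sst and 48.5% for Tac1, and in preCTC it was 113% for Gcg, 67.4% for Pyy, 60.7% for Nts, 57.1% for Cck, 84.1% for Sct, 45.3% for Sst and 22.3% for Tac1. Glp2r, at fewer counts, varied by 67.4% in postSTC, 35.0% in preSTC and 31.6% in preCTC.

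Among the sensors of microbial short-chain fatty acids, named after their values were seen, Ffar2 was lower in both preSTC and postSTC than in preCTC (log2 fold changes -1.07 and -1.82, edgeR adjusted p = 0.0314 and 0.00563). Ffar3 was higher in postSTC than in preCTC (2.39, edgeR adjusted p = 0.00681). Npy4r, the receptor for pancreatic polypeptide, likewise named after its values were seen, was lower in preSTC and in postSTC than in preCTC (-2.94 and -2.38, edgeR adjusted p = 0.00101 and 0.00795).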
